A study of Arabidopsis thaliana with 12 samples.

Results

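The B-box zinc finger family of Arabidopsis thaliana, BBX1 to BBX32, was examined in leaf RNA of the Col-0 accession, the Columbia reference line. Its 32 members were taken by locus from the family numbering and CONSTANS-like (COL) genes were included. Of these, 20 appeared in at least 1 of the 4 deposited tables of differentially expressed genes. Together these tables listed 6519 loci, where 20865 to 21349 genes were tested in each comparison. The plants had been acclimated for 22 days to 1 of 4 light regimes, each sampled as 3 libraries of polyadenylated RNA. SQH and SQL are square regimes, in which the lamp stays at a fixed level through the day, at high and at low intensity. FLH and FLL follow a naturally fluctuating record of light with the same daily total as the square regime of that intensity. All 4 groups were Col-0 leaves with no other genotype or agent, harvested near midday in the order SQH, SQL, FLH and FLL, so harvest order and regime cannot be told apart. The lamp level at the moment of harvest also belonged to the regime, and acclimation and an immediate response to that light cannot be told apart either. The share of reads aligned without their mate set every FLL library, and 1 of SQL, below the others, so for comparisons against FLL this split and the regime cannot be told apart.

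B-box proteins carry zinc-binding B-box domains, with or without a CCT domain, and act mostly as transcription factors or as cofactors that bind other transcription factors. CONSTANS (BBX1) promotes flowering through FT, several members without a CCT domain either help or hinder HY5, the bZIP factor that promotes light-grown development, and the ubiquitin ligase COP1 degrades a number of them. Many of the genes are expressed with a daily rhythm. The family is divided into 5 structure groups, of which groups I and II have a pair of B-boxes and a CCT domain, group III a single B-box and a CCT domain, group IV a pair of B-boxes alone, and group V a single B-box alone.

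Promoter stretches of 4 listed members are shown because BBX3, BBX24 and BBX8 share a clock-related element although they differed in opposite directions below, and because BBX30 held both a G-box, the site read by HY5 and PIF factors, and a CONSTANS-type element. They were read 5′ to 3′ on the gene's strand from RefSeq TAIR10.1, with the motif in capitals, and each lies wholly before the annotated start of the gene. The BBX3 stretch is chr3:489639-489665 on the minus strand, that of BBX8 is chr5:19563833-19563859 on the minus strand, that of BBX24 is chr1:1830018-1830044 on the minus strand, and that of BBX30 is chr4:8708760-8708783 on the plus strand.
BBX3: taagttaccAAAATATCTtcttgttac
BBX8: atactcataAAAATATCTttagggtcc
BBX24: aatataataAAAATATCTaaaggtagg
BBX30: atatttttcCACGTGtacaaccag

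The evening element AAAATATCT, searched on both strands from 250 bases before to 50 bases after the start, was found in 5 of the 32 members (BBX3, BBX8, BBX12, BBX13 and BBX24), or 15.6%, and in 2.82% of the 27444 protein-coding promoters. In BBX8 it was found 3 times, and in BBX12 and BBX13 it lay after the start. The G-box CACGTG was found in BBX5, BBX9, BBX10, BBX22 and BBX30, 15.6% of members and 7.68% of promoters. The CCA1-binding site AAAAATCT, a related but different string, was found in BBX11, BBX22, BBX26 and BBX28, 12.5% of members and 7.88% of promoters. In BBX22 it ends where the G-box begins, both after the start. BBX30 was the 1 member with the CONSTANS-type element, TGTG followed by ATG at a distance of 2 or of 3 bases, forms that occurred in 3.96% and 4.90% of promoters. These matches describe letters in a window and were not tested as binding sites.

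Each deposited table holds the genes past 2 thresholds of the authors, 0.05 for the adjusted p and 0.5 for the size of the log2 fold change, with 1 fold change and 1 standard error (SE) a gene and no value per library. A gene absent from a table is described as not listed. This covers a small difference, a wide difference with a large SE, and a gene too low to test. The mean normalised count is the mean over all 12 libraries. Levels of different genes are not compared, because these counts are not per length. Depth per library is not analysed here.

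The family was listed most often where FLH was compared, as were all genes tested. In SQH with FLH, 19 of the 32 members were listed, or 59.4%, against 22.2% of all genes tested, 11 higher in SQH (10.1% of all genes tested) and 8 higher in FLH (12.1%). In FLH with FLL, 12 members were listed, or 37.5%, against 9.89%, 2 higher in FLH (5.38%) and 10 higher in FLL (4.51%). In SQL with FLL, 4 members were listed, or 12.5%, against 8.2%, 1 higher in SQL (3.99%) and 3 higher in FLL (4.21%). The comparison of SQH with SQL listed 3 members, or 9.38%, against 3.11%, 1 higher in SQH (1.57%) and 2 higher in SQL (1.55%). The member shares are over all 32 loci, some of which may not have been tested, and the other shares are over genes tested only. No test of these shares against the rest of the genome was made, since the members are related genes.

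**Figure D1:**
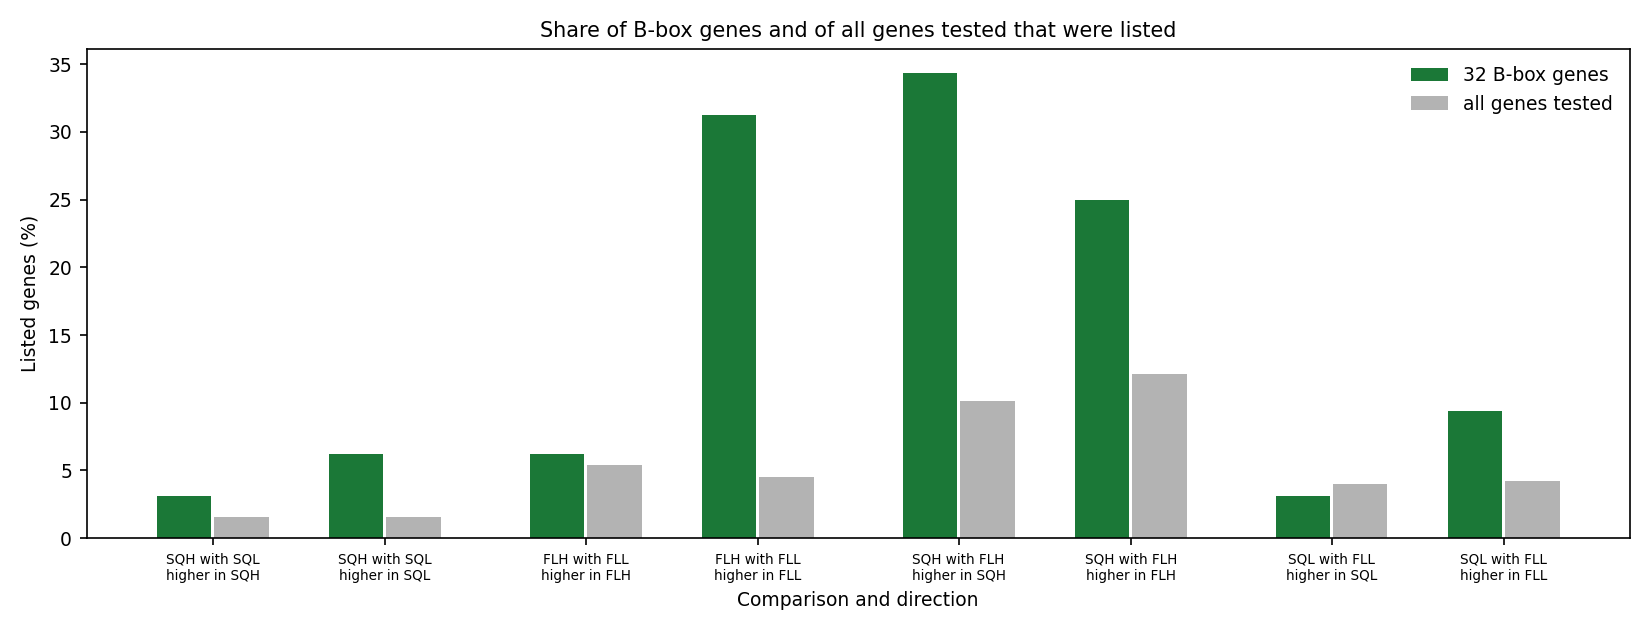
Percent of the 32 B-box genes (green) and of all genes tested (grey) listed in each comparison, split by the regime with the higher level. The tallest green bars are SQH with FLH, where 11 and 8 members were listed, and FLH with FLL, where 10 members were higher in FLL.

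The listed members' differences were also wide in the comparisons with FLH. The median absolute log2 fold change was 3.77 in FLH with FLL and 3.37 in SQH with FLH, beside 1.89 and 1.80 over all genes listed in those tables. It was 2.33 in SQL with FLL beside 1.80, and 2.23 in SQH with SQL beside 2.25. Their median SE was 0.76, 0.78, 0.73 and 0.70 in that order, beside 0.51, 0.49, 0.52 and 0.55 over all listed genes, so the members' SEs were also larger than those typical of a listed gene. Listing required a difference of at least about 2.5 to 3.2 times the SE, depending on the comparison. A larger SE thus admits only wider differences, and the width is not read as a trait of the family.

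BBX3, BBX16, BBX18, BBX19, BBX24, BBX25, BBX29, BBX30 and BBX32 lay below SQH and below FLL in the FLH libraries, and BBX20 and BBX22 lay above both. The same 3 FLH libraries enter both comparisons, so these are not independent observations of FLH. The share of all genes listed in both is not given here, and nothing particular to the family is read from the overlap. Another 6 members (BBX2, BBX8, BBX13, BBX14, BBX27 and BBX31) were listed in SQH with FLH alone, and BBX28 in FLH with FLL alone.

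**Figure D2:**
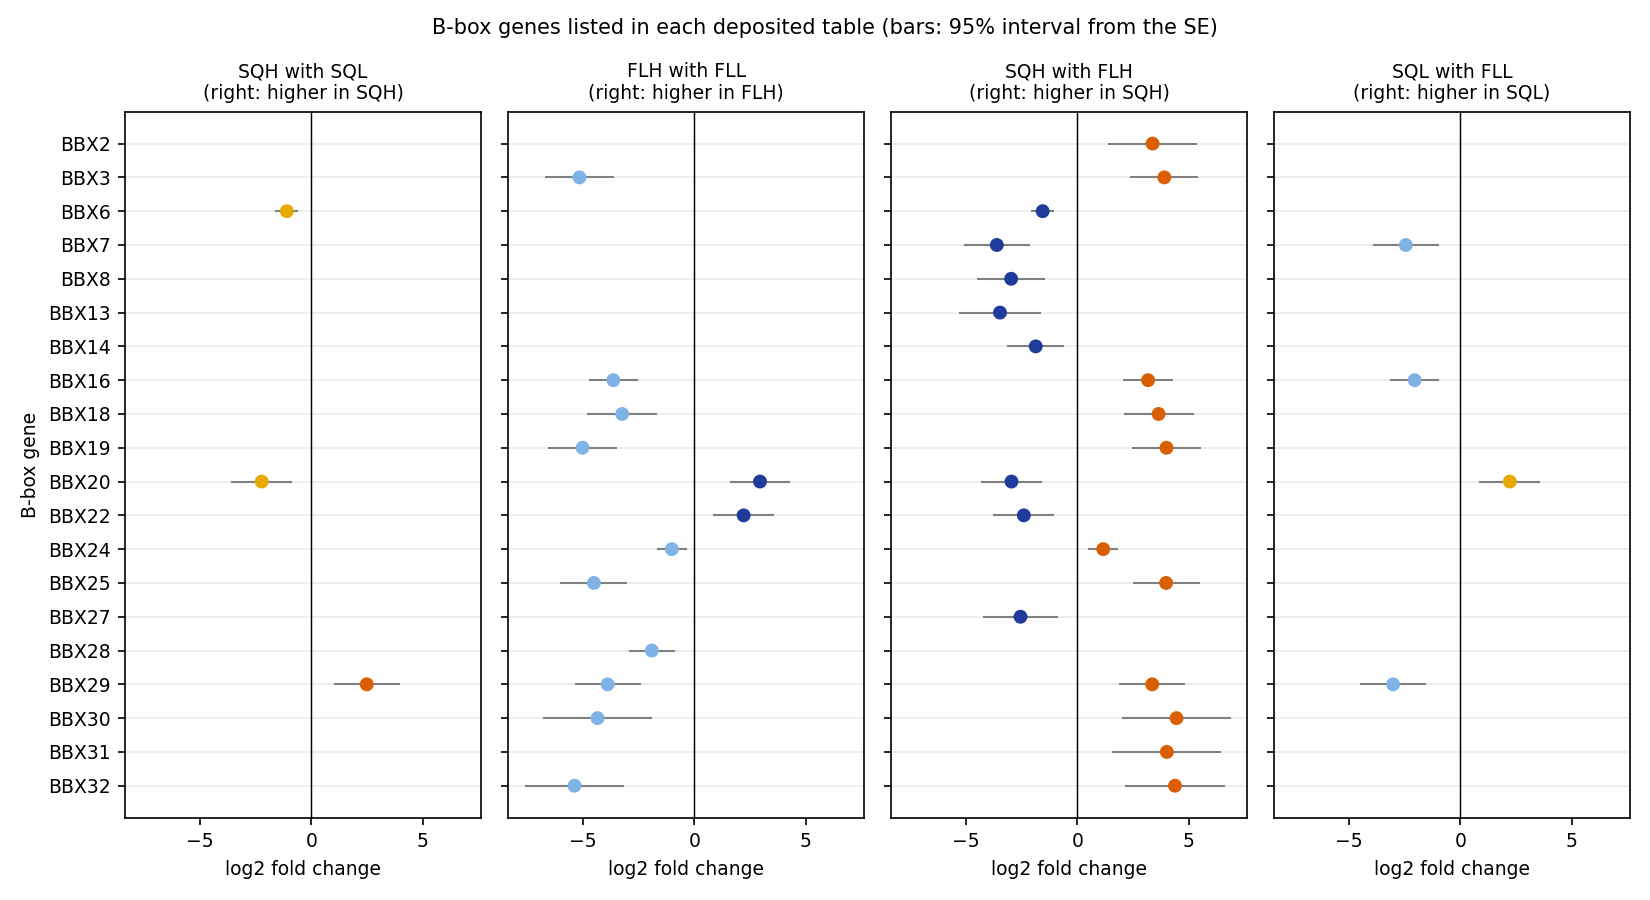
Deposited log2 fold changes of the 20 listed B-box genes in the 4 comparisons, with 95% intervals from the SE, and points coloured by the regime with the higher level. From BBX16 to BBX32 most points lie on the left in FLH with FLL and on the right in SQH with FLH, with BBX20, BBX22 and BBX27 on the other side where listed.

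Among the group I CONSTANS-like genes, 3 of 6 members were listed. Counts by structure group, here and below, are of members listed in any of the 4 tables. These hold 6519 loci, with 20865 to 21349 genes tested in each comparison. The group counts are small and are not read as a trait of a group. BBX3 (COL2, AT3G02380, chr3:487069-489467), a close relative of CONSTANS, had implied normalised counts of 4831 under SQH, 3501 under SQL, 323 under FLH and 11540 under FLL. The FLH level was the lowest by far, and the log2 fold change was 3.90 (SE 0.78, adjusted p = 1.94e-05, DESeq2) in SQH over FLH and -5.16 (SE 0.78, adjusted p = 2.44e-08, DESeq2) in FLH over FLL. Levels of this kind were recovered from the fold changes, their SEs and the mean normalised count, and they carry no spread between libraries. Genes AT3G02370 and AT3G02390 on the opposite strand overlap 1459 bases of BBX3, and whether the authors counted by strand is not given in the sources used here, so part of this signal may belong to them. Of the 32 members, 13 overlap another annotated gene, among them BBX24 by 344 bases and BBX14 by 329, both on the opposite strand. The same limit applies to these.

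BBX6 (COL5, AT5G57660), which can induce FT when overexpressed, was the member with the smallest SE. Its implied levels were 4736 (SQH), 10195 (SQL), 13940 (FLH) and 12211 (FLL), so SQH was the low regime. It was lower in SQH than in SQL with a log2 difference of -1.11 (SE 0.26, adjusted p = 0.00250, DESeq2) and lower in SQH than in FLH at -1.56 (SE 0.26, adjusted p = 1.83e-07, DESeq2). The recovered differences of FLH from FLL, 0.19 (95% interval -0.32 to 0.70), and of SQL from FLL, -0.26 (95% interval -0.77 to 0.25), were both below the listing threshold. BBX2 (COL1, AT5G15850) was listed in SQH with FLH at a log2 difference of 3.37 (SE 1.03, adjusted p = 0.00808, DESeq2) from a mean of only 12.0 normalised counts. All of its 1807 bases lie within AT5G15845, a long non-coding RNA gene on the other strand, and its call is therefore uncertain. CONSTANS itself (BBX1, AT5G15840), BBX4 (AT2G24790) and BBX5 (AT5G24930) were not listed in any table.

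In group II, 3 of 7 members were listed, all higher in FLH than in SQH. BBX7 (COL9, AT3G07650) and BBX8 (COL10, AT5G48250) are repressors of flowering. BBX7 had implied levels of 121 (SQH), 102 (SQL), 1480 (FLH) and 557 (FLL), so both fluctuating regimes lay above both square ones. Its log2 fold change was -3.61 (SE 0.76, adjusted p = 4.63e-05, DESeq2) in SQH over FLH and -2.44 (SE 0.76, adjusted p = 0.0256, DESeq2) in SQL over FLL. It was the 1 member listed at both intensities in the same direction of light pattern. BBX8 had -2.97 (SE 0.78, adjusted p = 0.00178, DESeq2) and BBX13 (COL15, AT1G28050) had -3.47 (SE 0.94, adjusted p = 0.00255, DESeq2) in SQH over FLH. Both held the evening element in the window searched, though in BBX13 only after the start. BBX9 (AT4G15250), BBX10 (AT3G21880), BBX11 (AT2G47890) and BBX12 (AT2G33500) were not listed.

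Group III held members of both directions. BBX16 (COL7, AT1G73870), known for a role in shade and branching, had implied levels of 7913 (SQH), 2637 (SQL), 877 (FLH) and 10906 (FLL). The high level thus sat with the high intensity under square light and with the low intensity under fluctuating light. Its log2 fold change was 3.17 (SE 0.56, adjusted p = 1.09e-06, DESeq2) in SQH over FLH, -3.64 (SE 0.56, adjusted p = 5.42e-08, DESeq2) in FLH over FLL and -2.05 (SE 0.56, adjusted p = 0.0113, DESeq2) in SQL over FLL. The comparison of SQH with SQL, recovered by closing the loop of the other 3, gave 1.59 (95% interval 0.48 to 2.69) and was not listed. BBX14 (COL6, AT1G68520), a gene of leaf greening and senescence, moved the other way, higher in FLH than in SQH, at -1.87 (SE 0.65, adjusted p = 0.0240, DESeq2). At that SE it would have needed a log2 difference of 1.83 to 2.06 in size to be listed elsewhere. BBX15 (AT1G25440) and BBX17 (AT1G49130) were not listed.

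Group IV, whose members are best known as partners of HY5, had 6 of 8 members listed. Both directions stood side by side in it. BBX18 (AT2G21320), BBX19 (AT4G38960), BBX24 (STO, AT1G06040) and BBX25 (STH, AT2G31380), which mostly act against HY5 or against flowering, were lowest in FLH. BBX20 (BZS1, AT4G39070) and BBX22 (LZF1, AT1G78600), which act with HY5 in light-grown development, were highest in FLH. BBX21 (STH2, AT1G75540), another HY5 cofactor, and BBX23 (AT4G10240) were not listed.

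BBX19, a repressor of flowering that binds CONSTANS, had implied levels of 947 (SQH), 657 (SQL), 59.3 (FLH) and 1922 (FLL). It differed by 4.0 (SE 0.80, adjusted p = 1.78e-05, DESeq2) in SQH over FLH and by -5.02 (SE 0.80, adjusted p = 1.26e-07, DESeq2) in FLH over FLL on the log2 scale. BBX25 lay at 5318, 3129, 337 and 7672 in SQH, SQL, FLH and FLL, with differences of 3.98 (SE 0.77) and -4.51 (SE 0.77). Both were thus at a small part of their SQH and FLL levels in FLH. BBX24, the close relative of BBX25, had 14760, 11346, 6599 and 13301, and moved far less, by 1.16 (SE 0.34, adjusted p = 0.00570, DESeq2) and -1.01 (SE 0.34, adjusted p = 0.0367, DESeq2). BBX18, which promotes growth in warmth, had 3052, 1231, 244 and 2310, with differences of 3.64 (SE 0.80) and -3.24 (SE 0.80).

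The HY5 partners BBX20 and BBX22 had the reverse pattern. Their calls in FLH with FLL were lost when fold changes were centred on the median of the listed genes, and under Bonferroni adjustment. BBX22 had implied levels of 487 (SQH), 1091 (SQL), 2578 (FLH) and 558 (FLL), and differed by -2.40 (SE 0.70, adjusted p = 0.00536, DESeq2) in SQH over FLH and by 2.21 (SE 0.70, adjusted p = 0.0242, DESeq2) in FLH over FLL. BBX20, a low gene with a mean of 45.0 normalised counts, had 12.4, 58.5, 96.6 and 12.6 and was listed in all 4 tables. It was high in SQL and FLH and low in SQH and FLL. Its log2 fold changes were -2.23 (SE 0.70, adjusted p = 0.0476, DESeq2) in SQH over SQL, 2.94 (SE 0.70, adjusted p = 0.00108, DESeq2) in FLH over FLL, -2.96 (SE 0.70, adjusted p = 0.000393, DESeq2) in SQH over FLH and 2.22 (SE 0.70, adjusted p = 0.0289, DESeq2) in SQL over FLL.

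Group V had 6 of 7 members listed. BBX29 (AT5G54470) was listed in all 4 tables as the mirror image of BBX20. Its implied levels were 1002 (SQH), 180 (SQL), 97.7 (FLH) and 1454 (FLL). It differed by 2.48 (SE 0.75, adjusted p = 0.0367, DESeq2) in SQH over SQL, -3.90 (SE 0.76, adjusted p = 2.92e-05, DESeq2) in FLH over FLL, 3.36 (SE 0.76, adjusted p = 0.000180, DESeq2) in SQH over FLH and -3.02 (SE 0.75, adjusted p = 0.00412, DESeq2) in SQL over FLL.

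The microproteins BBX30 (AT4G15248, a coding length of 354 bases) and BBX31 (AT3G21890), which bind CONSTANS and a TOPLESS corepressor, were both higher in SQH than in FLH. BBX30 had implied levels of 575 (SQH), 91.5 (SQL), 26.4 (FLH) and 538 (FLL), with differences of 4.45 (SE 1.24, adjusted p = 0.00342, DESeq2) in SQH over FLH and -4.35 (SE 1.24, adjusted p = 0.0101, DESeq2) in FLH over FLL. BBX31 was listed in SQH with FLH alone, at 4.01 (SE 1.25, adjusted p = 0.00964, DESeq2). An SE of this size corresponds to a coefficient of variation between libraries, counting noise included, of about 105% for BBX30 and 106% for BBX31. These were the widest among the listed members, the only ones with an SE. They rest mainly on a spread fitted jointly over the 4 regimes, not on that of the regimes compared alone. The neighbouring genes BBX9, 284 bases from BBX30, and BBX10, 486 bases from BBX31, were not listed, which does not show them unchanged.

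BBX32 (AT3G21150), a repressor of light-grown development, had implied levels of 480 (SQH), 103 (SQL), 23.1 (FLH) and 961 (FLL). Its log2 fold change in FLH over FLL, -5.38 (SE 1.14, adjusted p = 0.000188, DESeq2), was the widest of any member, and in SQH over FLH it was 4.38 (SE 1.14, adjusted p = 0.00157, DESeq2). BBX28 (AT4G27310), which hinders the binding of HY5 to its targets, was lower in FLH than in FLL, at -1.91 (SE 0.53, adjusted p = 0.00813, DESeq2). BBX27 (AT1G68190) was the 1 listed member of this group higher in FLH than in SQH, at -2.55 (SE 0.85, adjusted p = 0.0172, DESeq2). BBX26 (AT1G60250) was not listed.

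**Figure D3:**
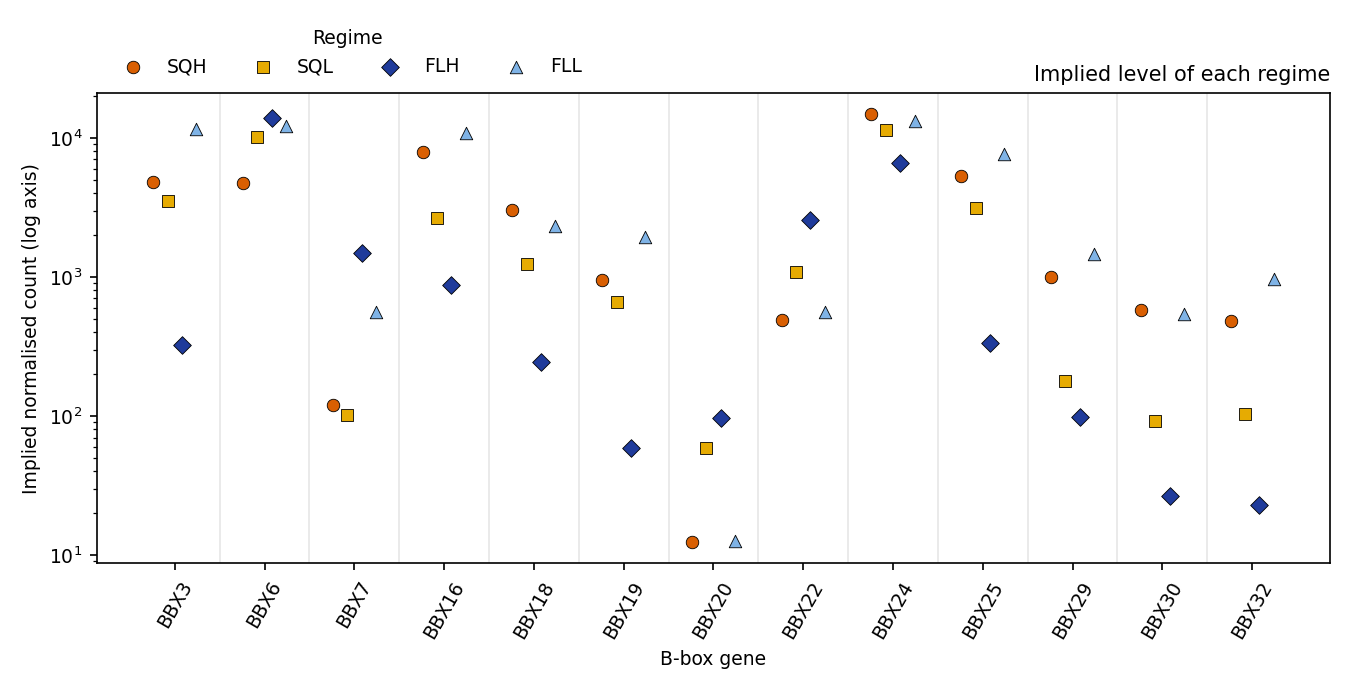
Implied normalised counts (log axis) of the 13 B-box genes whose 4 regime levels could be recovered, 1 marker a regime and no error bars, since no value per library was used. The FLH diamond is the lowest marker for 9 genes and the highest for BBX6, BBX7, BBX20 and BBX22.

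Levels of all 4 regimes could be recovered for 13 members. The order FLL, SQH, SQL, FLH from high to low was found for BBX3, BBX16, BBX19, BBX25, BBX29 and BBX32, and SQH, FLL, SQL, FLH for BBX18, BBX24 and BBX30. These are orders of the recovered values, and the steps between SQH and FLL and between SQL and FLH in them were not tested. All 21 comparisons recovered for unlisted pairs fell below the listing threshold, and the 95% interval held 0 in 16 of the 21 and excluded it in 5, for BBX3 and BBX32 in SQL over FLL, BBX16 in SQH over SQL and BBX30 in both. The nearest to the threshold was BBX32 in SQL over FLL, at -3.22 (95% interval -5.44 to -1.0). Of the 13, 10 were listed in 2 tables only, and the scale of their levels and the place of SQL among them (of FLL for BBX6, and of the square pair against each other for BBX7) rest on differences between SEs and on a fitted correction, most of all for BBX18, BBX22, BBX24, BBX30 and BBX32. Where the same step was run on 25 genes whose levels were known and whose SQH and FLL were as close as those of BBX22, BBX24 and BBX30, all 25 came back within 0.35 on the log2 scale and 23 within 0.1. The same share was 145 of 148 genes where SQH and FLL lay further apart, 116 of 124 for the pair of tables that served BBX6, where 4 gave no level and the largest error of the rest was 2.51, and 134 of 137 for the pair that served BBX7, where the largest error was 1.66. The genes checked had also served to fit the correction. Except for BBX16, the 95% intervals above carry the SE of the fold change and leave out the error of this recovery. With the correction left out, BBX3 in SQL over FLL went from -1.72 (SE 0.78) to -1.42, and BBX32 from -3.22 to -2.42. BBX30 then gave no value, so the intervals that excluded 0 rest in part on the correction.

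Whether the effect of light pattern differed between intensities was tested for members listed at both, as the difference of the 2 log2 fold changes, square minus fluctuating. For BBX16 it was 5.22 (SE 0.80, adjusted p = 1.83e-09), for BBX20 -5.17 (SE 0.99, adjusted p = 2.01e-06) and for BBX29 6.38 (SE 1.07, adjusted p = 5.34e-08), by a Wald test on the DESeq2 estimates with Benjamini-Hochberg adjustment over the 641 genes listed in both tables. These 3 members moved in opposite directions at high and low intensity. For BBX7 the difference was -1.17 (95% interval -3.27 to 0.93, adjusted p = 0.774), so its response to pattern was not distinguished between intensities, and the interval spans a wide range. Of the 641 genes, 18.3% passed. The effect of intensity differed between patterns by the same amounts for BBX20 (adjusted p = 3.10e-07) and BBX29 (adjusted p = 7.58e-09), among 141 genes of which 75.9% passed under that Wald test and adjustment. Genes listed in opposite directions pass such a test almost by construction, because each of the 2 effects had already passed its own threshold.

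**Figure D4:**
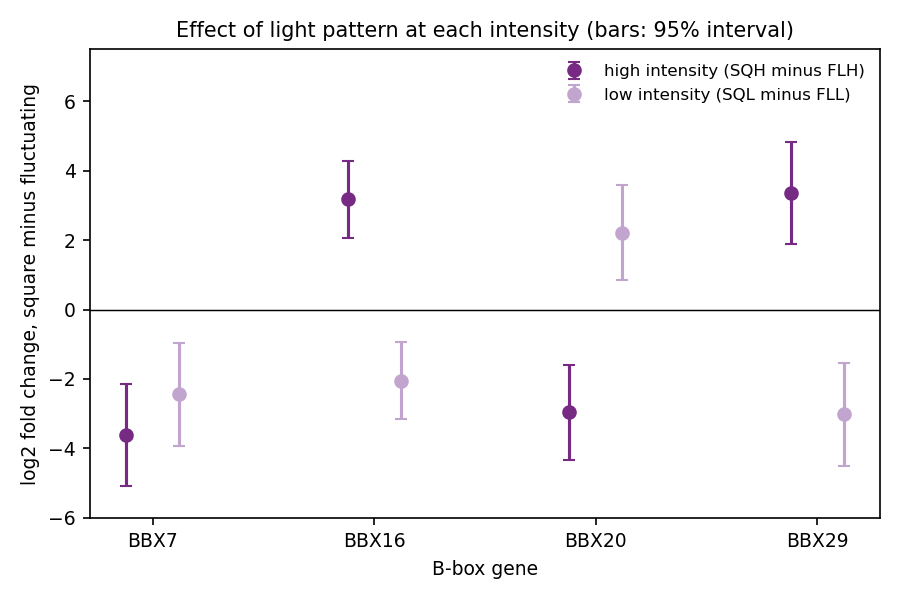
Log2 fold change of square over fluctuating light at high (dark) and low (pale) intensity for the 4 B-box genes listed at both, with 95% intervals from the SE. BBX16 and BBX29 lie above 0 at high and below 0 at low intensity, BBX20 the reverse, and BBX7 lies below 0 at both.

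Genes that act with the family were read from 4 lists of 46 loci. Of 13 photoreceptor and COP1/SPA genes, 9 were listed in SQH with FLH (22.2% of all genes tested were), 6 of them higher in SQH (10.1%), and 3 in FLH with FLL (9.89%), all higher in FLL (4.51%). SQH with SQL (3.11%) and SQL with FLL (8.2%) listed 1 each. PHYE, a phytochrome, differed by 0.93 (SE 0.20) in SQH over SQL and 1.12 (SE 0.20) in SQH over FLH. COP1, the ligase that degrades several B-box proteins, differed by 1.49 (SE 0.30) in SQH over FLH and -1.0 (SE 0.30) in FLH over FLL. COP1 was thus lower in FLH than in either, the direction of BBX24 and BBX25.

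Of 8 HY5, PIF and UV-B partner genes, 3 were listed in SQH with FLH (22.2% of all genes tested) and 1 in FLH with FLL, near the 9.89% of all genes, and none in the others. HY5 differed by 2.64 (SE 0.77, adjusted p = 0.00532, DESeq2) in SQH over FLH and -2.67 (SE 0.77, adjusted p = 0.0113, DESeq2) in FLH over FLL. HY5 was therefore low in FLH like BBX24 and BBX25 and unlike BBX20 and BBX22. PIF4, a growth-promoting factor, went the other way at -1.96 (SE 0.60) in SQH over FLH.

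In the CONSTANS and FT list of 15 genes, 6 were listed in SQH with FLH (22.2% of all genes tested), 4 of them higher in SQH. FLH with FLL listed 3 (9.89%), all higher in FLL, SQL with FLL listed 3 (8.2%), 2 of them higher in SQL, and SQH with SQL listed 1 (3.11%). CDF3, of the repressor family that acts on CONSTANS, differed by 2.75 (SE 0.49) in SQH over FLH and -2.44 (SE 0.49) in FLH over FLL. NF-YC4, a subunit that CONSTANS binds, differed by -2.27 (SE 0.56) in SQH over SQL and -3.09 (SE 0.56) in SQH over FLH, the same directions as BBX6.

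Among 10 pigment and photoprotection targets, 4 were listed in SQL with FLL (8.2% of all genes tested), 3 in SQH with FLH (22.2%), 1 in FLH with FLL (9.89%) and 1 in SQH with SQL (3.11%), each of them higher in the regime named first. The share in FLH with FLL is that of all genes, and the one in SQH with FLH is near it. PAP2, an anthocyanin regulator with a mean of only 36.1 normalised counts, differed by 8.66 (SE 1.37) in SQH over SQL and 6.74 (SE 1.0) in SQH over FLH. MYB12, a flavonol regulator with a mean of 26.4 normalised counts, differed by 2.45 (SE 0.71) in SQH over FLH and 3.80 (SE 0.80) in SQL over FLL. Both were higher under square light at each intensity where the pair of patterns was listed.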

How the data were processed

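Polyadenylated leaf RNA of 12 libraries, 3 for each of 4 regimes, was sequenced by the authors. Groups were taken from the library titles. The submitters' processing notes name HISAT2, SAMtools, featureCounts, DESeq2 and TAIR10, with no versions, and strandedness is not given in the sources used here. The 4 deposited tables hold only called genes, and their columns are the authors' own comparisons, used here because they are the only measurements. The deposited signal is the mean of counts divided by size factors over all libraries, the deposited log2 fold changes and SEs are on the log2 scale and were not shrunken, the deposited score is the Wald statistic, and the deposited p-value and adjusted p-value are those of DESeq2. With no values per library, depth and the precision it gives are known only through the SEs. All 2303 loci in 2 or more tables had the same mean in each. In the 39 loci listed in all 4 tables, where this could be checked, the SEs also closed across the comparisons. The 12 libraries were thus fitted jointly. The p-values rest on a spread between libraries shared by the 4 regimes, not on that of the regimes compared alone. The study calls the 3 libraries a regime biological replicates.

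A positive fold change means higher in the regime named first, as 439 of 439 checks on SEs over all loci showed. The number of genes tested, 21349 or 20865, follows from the adjusted p divided by p, which equals that number over the rank. It was inferred as the number that put most rows on a whole rank, 56.3% to 77.4% of them by comparison. The fourth comparison of a gene in 3 tables follows from closing the loop, and its squared SE from the other 3. For genes in 2 tables, regime levels were recovered from the difference of the squared SEs, which holds the counting noise, with 1 factor a regime (0.987 to 1.02) fitted by least absolute deviations on 223 pairs of SEs from 211 genes in at least 3 tables. This second step was not planned and was added after the data were seen. The smallest gap it accepts between the unshared regimes, 0.05 on the log2 scale, was lowered from 0.3 after its accuracy was seen, which brought in BBX22, BBX24 and BBX30. Accuracy was checked on genes that also served the fit. Scripts were tested on simulated data.

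The members, lists and tests were chosen with earlier results of these data known. All 32 members are accounted for, and pathway genes are named as the 2 of each list with the largest absolute Wald score in any table. Promoters were read from RefSeq TAIR10.1. The alternatives tried were stricter thresholds, a count minimum, centring and a shorter promoter window. Python 3.11.15, pandas 2.3.3, numpy 2.4.6 and scipy 1.17.1 were used.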

Additional observations from a re-analysis of the deposited data

Results flagged for a closer look

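The effect of light pattern differed between intensities, by the test of the difference itself, for 3 B-box genes: by 5.22 on the log2 scale for BBX16, by -5.17 for BBX20 and by 6.38 for BBX29. The effect of intensity differed between patterns for BBX20, by -5.17, and for BBX29, by 6.38. For BBX20 and BBX29 these are the same quantity read from the other pair of tables. All 3 had been listed in opposite directions in the tables compared, which makes a difference past the threshold nearly certain.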

How the results depend on the processing

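No member's call reversed under centring, the 1 alternative that alters the fold changes of the calls. The stricter thresholds and the count minimum keep those fold changes and can only drop a call. At an adjusted p of at most 0.01, 10 of the 38 calls were lost, and SQH with SQL kept 1 member and SQL with FLL 1, where 1.52% and 2.29% of all genes tested were kept. Under Bonferroni adjustment 27 were lost, and SQH with SQL kept 0 of its 3 DESeq2 calls, FLH with FLL 5 of 12, SQH with FLH 6 of 19 and SQL with FLL 0 of 4, beside 0.487%, 1.3%, 3.94% and 0.465% of all genes tested, and all of these calls had an unadjusted p under 0.05. Centring on the median of the listed genes cost 8 calls and left 2 in SQL with FLL, beside 4.7% of all genes. Among the calls lost were BBX20 and BBX22 in FLH with FLL, the only members listed as higher in FLH there. BBX22 was also lost in SQH with FLH, where BBX20 was kept. A count minimum of 100 cost 5, and left 1 of the 2 members whose intensity effect differed between patterns, since BBX20 falls below it. Restricting the tests of differing effects to genes listed in the same direction gave 0 members for pattern, where BBX7 was the 1 left (unadjusted p of 0.274 by the Wald test on the DESeq2 estimates), and 0 for intensity, where no member was left to test. The shorter promoter window kept 10 of 13 members with a motif. With all factors of the level recovery at 1, chosen after seeing the data, 12 of 20 recovered differences moved by less than their SE, though among these BBX32 in SQH over SQL went from 2.22 to 1.41, BBX25 from 0.77 to 0.22, BBX19 from 0.53 to 0.19 and BBX3 from 0.46 to 0.16, 4 moved by more (BBX18 and BBX22, by up to 1.33 on the log2 scale) and 4 gave no value (BBX24 and BBX30), so these SQL levels rest on the fitted factors. No paired analysis was possible because the tables used hold no values per library, and leaving out each replicate was not run for the same reason.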
